A study of Rattus norvegicus with 16 samples.

Results

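Small leucine-rich proteoglycans are secreted matrix proteins built from leucine-rich repeats, most of which carry chondroitin, dermatan or keratan sulfate chains. They bind collagen fibrils and set how fibrils assemble, and several of them bind TGF-beta. In the brain they are made mainly by fibroblasts of the meninges and around vessels. The 8 genes described here are 7 of these proteoglycans, grouped by protein class, and a partner in collagen assembly. Class I holds Dcn (decorin), Bgn (biglycan) and Aspn (asporin), class II holds Fmod (fibromodulin), Lum (lumican) and Prelp (prolargin), and class III holds Ogn (osteoglycin). Pcolce, the procollagen C-proteinase enhancer, speeds the removal of the C-propeptide of fibrillar collagens by Bmp1. The genes were taken by symbol, as genes the study treats as central to its network analysis, out of 16405 different single symbols in the table for the CA1 field of the hippocampus and 16395 in that for white blood cells (WBC). Where a symbol had several rows, the row with the highest mean stood for the gene.

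Male Sprague Dawley rats of 200 to 240 g had a traumatic brain injury (TBI) by fluid percussion, in which a pulse of fluid strikes the dura, or sham surgery without it. After 1 week they were tested for learning and killed, and polyadenylated RNA was sequenced from hippocampal CA1 tissue and from white blood cells. The groups were CA1 TBI, CA1 sham, WBC TBI and WBC sham, with 4 libraries in each and 16 in all. Levels are in FPKM, which corrects fragment numbers for the length of the transcript and the size of the library, so they can be compared between genes, but the number of fragments behind each value is unknown. The 2 tables were normalized separately, and levels are set side by side across tissues without a test. The labels do not say whether each library is a separate animal, nor which CA1 and WBC libraries share a rat, so the spread behind each p-value is that between these libraries and may be technical.

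Of the 8 genes, 5 have a promoter entry in the RefSeq tables (GRCr8), and for Fmod and Pcolce the bases just before the start lie outside the annotated gene. Fmod is shown because it is the gene whose CA1 groups did not overlap, and Pcolce for comparison, as the gene that is no proteoglycan. Each line gives the 100 bases before the start, 5′ to 3′ on the plus strand, with GC boxes (GGGCGG on either strand) in capitals, at chr13:48045467-48045566 for Fmod and chr12:24720872-24720971 for Pcolce.
Fmod: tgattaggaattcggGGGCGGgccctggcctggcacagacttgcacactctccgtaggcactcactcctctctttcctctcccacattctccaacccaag
Pcolce: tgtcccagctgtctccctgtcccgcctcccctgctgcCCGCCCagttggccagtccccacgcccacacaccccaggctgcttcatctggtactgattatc
The GC box begins 85 bases upstream in Fmod, on the strand of the gene, and 63 bases upstream in Pcolce, on the opposite strand. Neither window holds TATAA or CCAAT on either strand. Over 33469 rat promoters 21.6% of windows of this length hold GGGCGG, 11.0% TATAA and 17.1% CCAAT. These matches describe the letters and are not sites of binding.

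Ogn and Aspn were listed at or near 0 in both tables. Aspn was listed at 0 FPKM in every CA1 and WBC library, in both of its rows. Ogn was listed at 0 in all WBC libraries and in all 4 CA1 TBI libraries. Of the CA1 sham libraries, sham 3 had 0.0115 FPKM and sham 4 had 0.0123 FPKM of Ogn, and sham 1 and sham 2 were at 0. Ogn, Omd (osteomodulin, a class II relative) and Aspn are neighbours in the rat genome (RefSeq, GRCr8), and each has 2 rows here, as has Nol8, which stands before Ogn in the table. Nol8, a nucleolar protein gene used widely across cells, was also listed at 0 in every library of both tissues. Iars, the isoleucyl-tRNA synthetase that is numbered between the paired rows and has a single row, stood at 16.9 to 19.7 FPKM in CA1. Ippk, which lies near Aspn in the genome, has 2 rows in CA1 and neither was at 0 (means of 1.25 and 8.79 FPKM). Among symbols with 2 rows, 27.8% of 984 were at 0 in every row and CA1 library, against 14.0% of 15367 symbols with 1 row. In WBC these shares were 35.6% of 862 and 20.3% of 15465. Col1a2, a chain of type I collagen, and Fibcd1, a marker of CA1 pyramidal cells, also have 2 rows each and were at 0 throughout. Why such rows are at 0 was not tested.

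The other 6 genes were all measured in CA1. Over the sham libraries Dcn was the highest (12.8 ± 1.65 FPKM; SD, n = 4), followed by Bgn (11.2 ± 0.568) and Prelp (9.01 ± 2.90). Lum (3.85 ± 1.06), Fmod (2.77 ± 0.414) and Pcolce (2.39 ± 0.480) were lower. The ranges of neighbours in this order overlapped, except between Prelp and Lum, where all 4 TBI and all 4 sham values of Prelp lay above those of Lum. In WBC the picture was different. Bgn stood at 80.4 ± 32.2 FPKM in TBI and 131 ± 20.2 in sham (SD, n = 4), above 94.2% of the rows tested in that tissue. Every WBC value of the other 7 genes was at or under 0.306 FPKM.

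**Figure D1:**
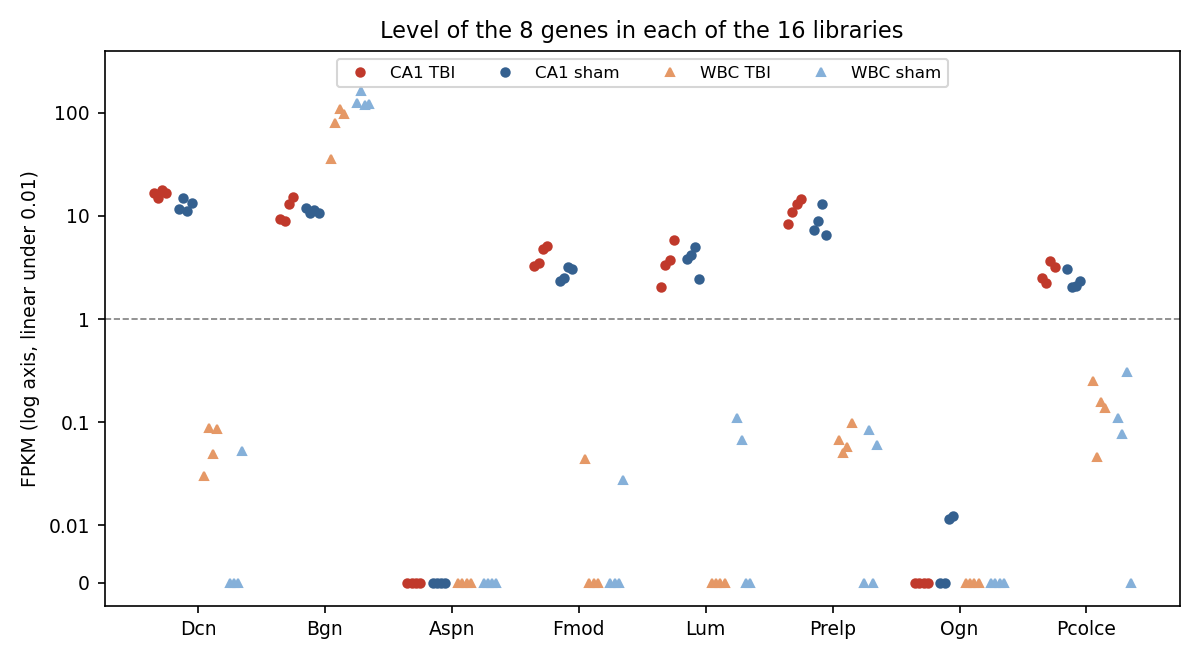
FPKM of the 8 genes in each library on a log axis that is linear under 0.01 FPKM, for CA1 TBI, CA1 sham, WBC TBI and WBC sham, with 1 point per library and the filter of 1 FPKM as a dashed line. Bgn is above the line in both tissues, Dcn, Fmod, Lum, Prelp and Pcolce in CA1 alone, and Ogn and Aspn in neither.

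The tissues matched their labels on most defining markers. In CA1 the glutamate transporter Slc17a7 averaged 747 FPKM in TBI and 797 in sham, and the CA1 marker Wfs1 84.3 and 106 FPKM. In WBC the leukocyte gene Ptprc averaged 300 and 289 FPKM in TBI and sham. WBC libraries also held platelet and red cell transcripts, with Pf4 at 3759 FPKM in TBI and 6115 in sham, and Alas2 at 6080 and 9689. Meningeal fibroblast genes were present in CA1, as in Aldh1a2 (4.46 and 4.01 FPKM) and Slc6a13 (2.84 and 2.39). The 28 such genes in the WBC table summed to 7.83 to 13.1 FPKM in TBI and 7.16 to 11.7 in sham, with Col1a2, Foxc2, Tbx18 and Nupr1 at 0. On the first principal component of CA1 (22.9% of the variance) TBI 1 (28.4) and sham 1 (27.4) stood apart from the other 6 libraries (-19.4 to -1.77). On that of WBC (31.1%) TBI 1 stood at 57.0 and the other TBI libraries at 4.36 to 19.1. All WBC sham libraries lay below them, at -32.9 to -13.3. The choroid plexus transcript Ttr ran from 160 to 2694 FPKM in CA1 TBI and from 3.42 to 1271 in CA1 sham.

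CA1, TBI against sham. None of the 6 genes measured in CA1 passed in limma (adjusted p over 14637 rows, threshold 0.05), where 0.00683% of all rows did (1 row, with no gene name). Fmod, Dcn and Prelp had the largest differences, each with higher group means in TBI. At an unadjusted p under 0.05 there were 2 of the 6, Dcn and Fmod, against 5.14% of all rows. The groups did not overlap in 1 of the 6, Fmod, against 2.88% of all rows, and 1.28% with TBI higher. The log2 difference, TBI minus sham, was above 0 in 5 of the 6, with a median of 0.29. It was above 0 in 46.7% of all rows tested, with a median of -0.01. All 6 genes were above 1 FPKM in each group, so none entered through 1 group only. In tissue of mixed cells, more cells of a type and more RNA per cell cannot be told apart.

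Dcn, which binds collagen and TGF-beta, stood at 16.8, 14.9, 18.0 and 16.7 FPKM in TBI libraries 1 to 4. In sham libraries 1 to 4 it stood at 11.8, 14.98, 11.3 and 13.2 FPKM. The groups overlapped through sham 2, which lay just above TBI 2. The log2 difference was 0.36 ± 0.10 (SE; 95% interval 0.14 to 0.58; limma adjusted p = 0.891), a mean ratio of 1.29. All such differences are on the scale of log2 of FPKM + 0.5, which understates those of low genes.

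Bgn, a signal to Toll-like receptors when it is released from matrix, stood at 9.34, 8.88, 13.0 and 15.2 FPKM in TBI libraries 1 to 4. In sham libraries 1 to 4 it stood at 11.8, 10.8, 11.6 and 10.7 FPKM. The TBI libraries lay on both sides of the sham range, 2 above it and 2 below it. The standard deviation was 3.03 FPKM in TBI and 0.568 in sham, and the log2 difference was 0.02 ± 0.16 (SE; 95% interval -0.35 to 0.38; limma adjusted p = 0.992). Without TBI 4 the log2 difference was -0.12.

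Fmod, which binds type I collagen and limits the thickness of its fibrils, stood at 3.27, 3.46, 4.79 and 5.14 FPKM in TBI libraries 1 to 4. In sham libraries 1 to 4 it stood at 2.35, 2.50, 3.17 and 3.08 FPKM. Each TBI library lay above each sham library, but TBI 1 exceeded the highest sham library, sham 3, by little. The means were 4.17 ± 0.937 FPKM in TBI and 2.77 ± 0.414 in sham (SD, n = 4), and the log2 difference was 0.50 ± 0.16 (SE; 95% interval 0.14 to 0.85; limma adjusted p = 0.891).

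Lum, which orders collagen fibrils in the cornea, stood at 2.05, 3.37, 3.74 and 5.91 FPKM in TBI libraries 1 to 4. In sham libraries 1 to 4 it stood at 3.84, 4.16, 4.97 and 2.43 FPKM. TBI held both the lowest and the highest library. The log2 difference was -0.07 ± 0.29 (SE; 95% interval -0.72 to 0.58; limma adjusted p = 0.977), and without TBI 1 it was 0.15.

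Prelp, a proteoglycan that binds collagen and the heparan sulfate of basement membranes, stood at 8.27, 11.0, 13.2 and 14.5 FPKM in TBI libraries 1 to 4. In sham libraries 1 to 4 it stood at 7.37, 8.96, 13.1 and 6.60 FPKM. Sham 3 reached the level of TBI 3, so the groups overlapped. The mean ratio was 1.30, the log2 difference 0.38 ± 0.23 (SE; 95% interval -0.14 to 0.90; limma adjusted p = 0.891).

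Pcolce stood at 2.48, 2.22, 3.68 and 3.22 FPKM in TBI libraries 1 to 4 and at 3.09, 2.07, 2.07 and 2.35 FPKM in sham libraries 1 to 4. TBI 3 and TBI 4 were the highest of the 8 libraries, and sham 1 lay above the other 2 TBI libraries. The log2 difference was 0.23 ± 0.17 (SE; 95% interval -0.15 to 0.60; limma adjusted p = 0.891), and without TBI 3 it was 0.12.

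**Figure D2:**
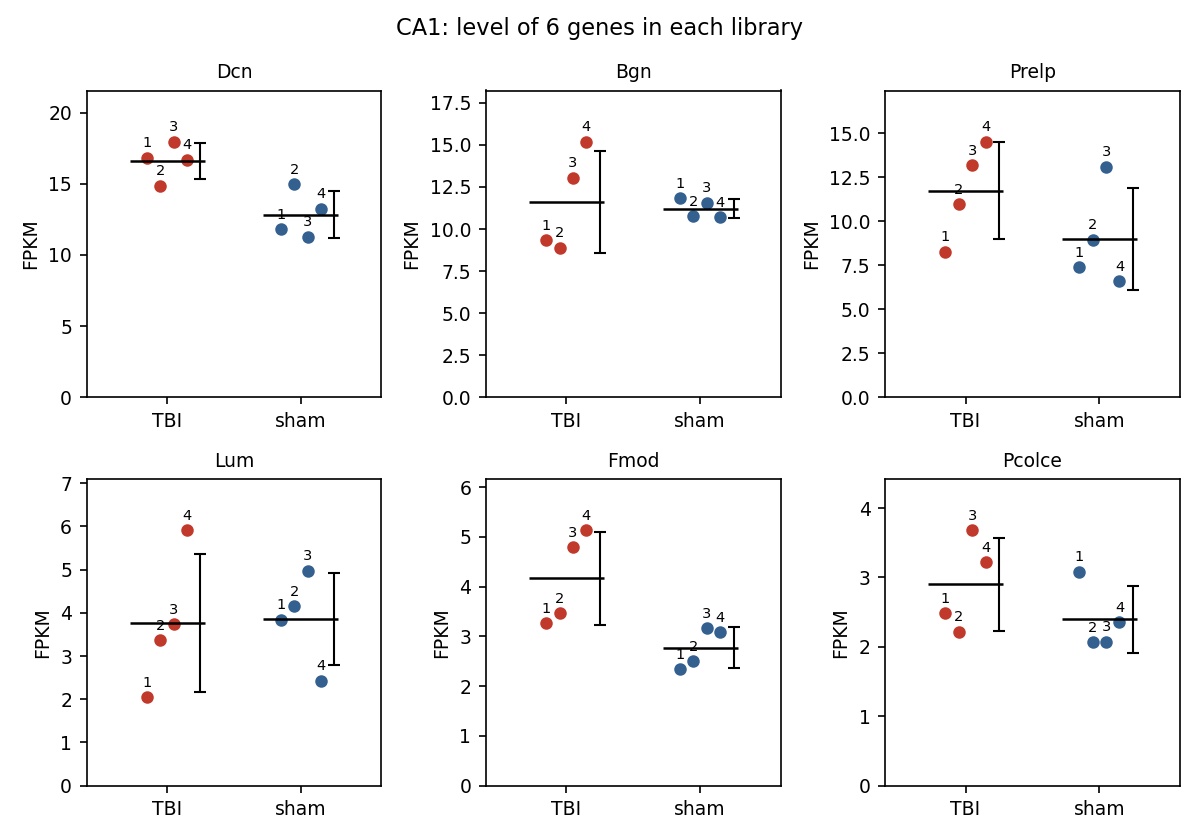
FPKM of Dcn, Bgn, Prelp, Lum, Fmod and Pcolce in the CA1 libraries, TBI left of sham, 1 numbered point per library, with the mean (line) and the SD (bar) of 4 libraries. The groups are separate in Fmod alone, and TBI 3 and TBI 4 are the highest TBI libraries for Bgn, Prelp, Lum, Fmod and Pcolce.

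Without TBI 1 and sham 1, which stood apart on the first principal component, the log2 differences were 0.32 for Dcn, 0.13 for Bgn, 0.53 for Fmod, 0.16 for Lum, 0.46 for Prelp and 0.39 for Pcolce, and again none passed in limma (adjusted p from 0.281 for Fmod to 0.821 for Lum). The difference of Lum thus changed sign without them.

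TBI 4 was the highest CA1 library for Bgn, Prelp, Lum and Fmod, and TBI 3 the highest for Dcn and Pcolce. The summed level of the listed leptomeningeal and fibroblast markers was also highest in TBI 4, followed by TBI 3, but single transcripts differed. Fbln1 and Mgp were highest in TBI 4, Col3a1 in sham 4 and Foxc1 in sham 1. The summed oligodendrocyte markers were highest in TBI 4 too (6716 FPKM), but lowest in TBI 3 (4470 FPKM). Of the 29 leptomeningeal and fibroblast markers in the CA1 table, 22 were tested and none passed in limma. At an unadjusted p under 0.05 there was 1, against 5.14% of all rows tested. The log2 difference was above 0 in 18 of the 22, with a median of 0.16 against -0.01 for all rows tested. Their summed level was 789, 666, 848 and 1154 FPKM in TBI libraries 1 to 4 and 745, 603, 677 and 576 FPKM in sham libraries 1 to 4. Col1a2 and Nupr1 were at 0. Ptgds, prostaglandin D2 synthase, made up 69.1% of that sum. Without Ptgds the sums ran from 196 to 314 FPKM in TBI and from 188 to 243 in sham. The part of these cells in the differences of Fmod, Dcn and Prelp was not tested.

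Within the list the 3 highest genes were Ptgds, Igfbp2 and Igf2. Ptgds stood at 610 ± 161 FPKM in TBI and 437 ± 66.9 in sham (log2 0.46, limma adjusted p = 0.891). Igfbp2, which binds insulin-like growth factors, stood at 55.0 ± 13.7 and 43.1 ± 2.56 FPKM (log2 0.31), and the growth factor Igf2 at 43.9 ± 11.6 and 32.8 ± 4.36 (log2 0.38), both without passing (limma adjusted p = 0.891). Col1a1, the other chain of type I collagen, stood at 5.68 ± 1.15 FPKM in TBI and 5.66 ± 0.487 in sham, a log2 difference of -0.01. Pericyte and smooth muscle markers were above 0 in 5 of 12 tested (median -0.08) and endothelial markers in 1 of 12 (median -0.15). No gene of either list passed in limma, with 0 and 3 at an unadjusted p under 0.05, against 5.14% of all rows. The pericyte gene Rgs5 stood at 30.6 ± 2.47 FPKM in TBI and 32.0 ± 0.752 in sham, and the tight junction gene Cldn5 at 54.7 ± 6.91 and 63.0 ± 20.7. Choroid plexus markers were above 0 in 10 of 13 (median 0.14), again with none called and 0 at an unadjusted p under 0.05. Pyramidal neuron markers were above 0 in 0 of 7 (median -0.18), with 1 at an unadjusted p under 0.05. Astrocyte (8 tested, median -0.10), oligodendrocyte (8, 0.00), microglia (9, -0.00), leukocyte (4, 0.06), erythroid (6, -0.03) and platelet markers (1, 0.21) held no called gene in limma either, with 1 astrocyte, 1 microglial and 1 erythroid gene at an unadjusted p under 0.05.

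**Figure D3:**
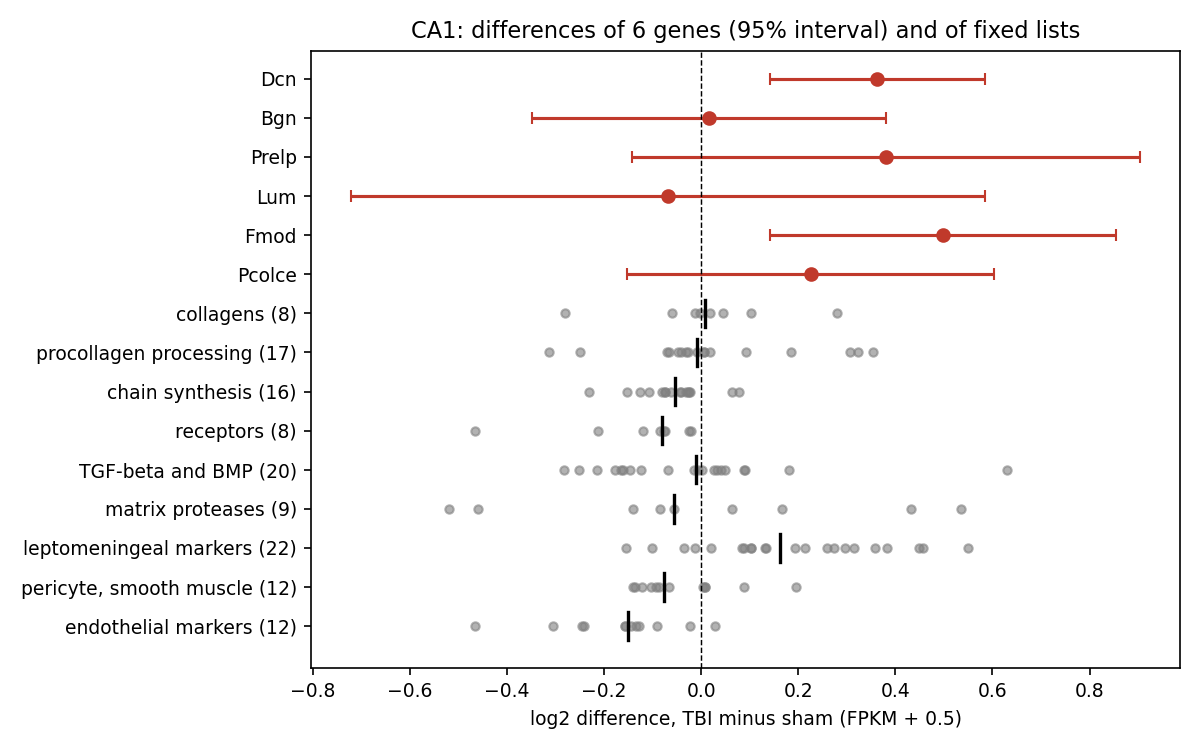
Log2 differences in CA1, TBI minus sham, on log2 of FPKM + 0.5, for Dcn, Bgn, Prelp, Lum, Fmod and Pcolce with their 95% intervals, and below them the tested genes of 9 lists as grey points with the median as a black line (number of genes in brackets). The intervals of Dcn and Fmod lie above 0, and of the 9 medians that of the leptomeningeal markers, 0.16, is the highest. Among lists not drawn, the choroid plexus markers have a median of 0.14, and the 1 platelet marker tested stands at 0.21.

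Genes that act with these proteoglycans had medians near or below that of all rows in CA1, and none passed in limma. Of all CA1 rows tested, 5.14% were at an unadjusted p under 0.05. Of the procollagen processing and crosslinking genes 17 were tested, with 8 above 0, a median of -0.01 and 3 at an unadjusted p under 0.05. The highest of them were the collagen chaperones Ppib (126 ± 8.92 FPKM in TBI, 125 ± 8.08 in sham) and Serpinh1 (29.0 ± 2.22 and 29.5 ± 1.98), with P4hb (57.8 ± 2.90 and 58.1 ± 1.72), a subunit of prolyl hydroxylase. Bmp1, the proteinase that Pcolce enhances, stood at 5.21 ± 0.475 FPKM in TBI and 4.86 ± 0.363 in sham (log2 0.09, limma adjusted p = 0.891). Of the collagens 8 were tested, 4 of them above 0, with a median of 0.01 and 1 at an unadjusted p under 0.05. Col11a2 stood at 8.77 and 8.49 FPKM in TBI and sham, and Col3a1 at 4.56 and 4.35.

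Among signalling partners in CA1, 20 TGF-beta and BMP genes were tested, with 9 above 0, a median of -0.01 and 2 at an unadjusted p under 0.05. The highest were the receptors Bmpr2 (20.9 and 21.9 FPKM in TBI and sham) and Bmpr1a (10.0378 and 10.0293), and the signal transducer Smad4 (11.7 and 13.8). All 8 tested receptors reported to bind these proteoglycans had a log2 difference below 0, with a median of -0.08 and 1 at an unadjusted p under 0.05. The highest were Lrp1, a clearance receptor (31.0 ± 1.18 FPKM in TBI, 32.9 ± 1.51 in sham), the integrin subunit Itgb1 (21.7 and 22.8) and Igf1r (4.12 and 4.22). Enzymes that build the sugar chains were above 0 in 2 of 16, with a median of -0.05 and 0 at an unadjusted p under 0.05. B3gat3, which completes the linker to the core protein, stood at 124 ± 4.61 FPKM in TBI and 118 ± 7.69 in sham. Chst1, a keratan sulfate sulfotransferase, stood at 111 and 114 FPKM, and Chpf, a chondroitin polymerizing factor, at 44.9 and 47.3. Of the 9 tested matrix proteases and inhibitors 4 were above 0 (median -0.06). At an unadjusted p under 0.05 there were 4, against 5.14% of all rows tested. The inhibitor Timp2 stood at 111 ± 21.9 FPKM in TBI and 81.3 ± 10.8 in sham (log2 0.43, limma adjusted p = 0.891), Timp3 at 19.3 and 20.1, and Timp4 at 11.5 and 10.2.

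Other members of the family were scarce. Of 11 further small leucine-rich proteoglycans and relatives, 7 were in the CA1 table and only Tsku (tsukushi) passed the filter, at 1.06 to 1.35 FPKM in TBI and 0.948 to 1.32 in sham (log2 0.07, limma adjusted p = 0.937). Optc, Epyc, Chad, Nyx and Kera were at or under 0.809 FPKM in every CA1 library, and Omd was at 0 in both of its rows. In WBC only Optc (opticin) passed the filter, at 2.12 to 4.31 FPKM in TBI and 1.74 to 2.68 in sham (log2 0.17, limma adjusted p = 0.704).

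Over the 8 CA1 libraries most pairs of the 6 measured genes had a positive correlation. On the log2 scale 14 of the 15 pairs had a Pearson's r above 0, with a median of 0.52, and the exception was Dcn with Lum (-0.14). With the group means subtracted the median was 0.40. No share over pairs of all CA1 rows was computed, so whether the count is particular to these genes was not tested. The closest pair was Prelp with Fmod, neighbours in the genome (RefSeq, GRCr8), with r = 0.75 (exact permutation p = 0.0337, adjusted p = 0.389) and Spearman's rho = 0.79 (exact permutation p = 0.0279, adjusted p = 0.510). Without the 2 libraries farthest from the median of Prelp, r was 0.75, and with the group means subtracted 0.65. Bgn with Lum had r = 0.72 (exact permutation p = 0.0439, adjusted p = 0.389) and rho = 0.71 (exact permutation p = 0.0576, adjusted p = 0.510), with r = 0.68 without the 2 farthest libraries and 0.72 with the group means subtracted. Prelp with Lum had r = 0.71 (exact permutation p = 0.0491, adjusted p = 0.389) and rho = 0.62 (exact permutation p = 0.115, adjusted p = 0.510), with r = 0.45 without the 2 farthest libraries and 0.88 with the group means subtracted. No pair passed after adjustment over the 27 relations computed. Dcn and Lum, also neighbours in the genome, had the lowest r of the 15 pairs. These 27 include each gene with Ttr (r from -0.30 to 0.55) and with the pericyte receptor Pdgfrb (r from -0.64 to 0.42). Relations with Col1a2 could not be computed, because it is listed at 0.

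**Figure D4:**
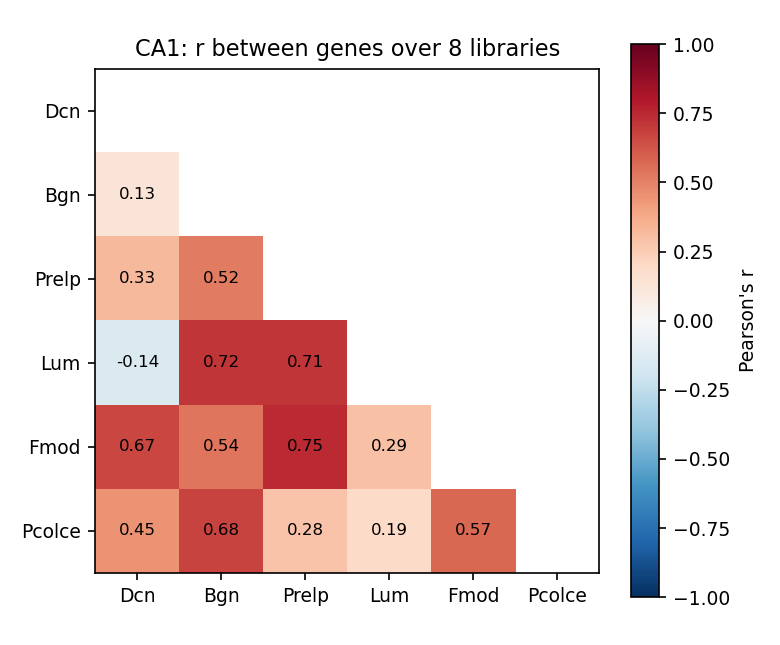
Pearson's r between Dcn, Bgn, Prelp, Lum, Fmod and Pcolce over the 8 CA1 libraries on log2 of FPKM + 0.5, coloured from blue (-1) to red (1). Prelp with Fmod is the closest pair at 0.75, and Dcn with Lum is the only pair below 0.

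Among 10613 other named CA1 rows, the closest to each gene over the same 8 libraries were found by Pearson's r, as a description without a test. The best of so many rows over 8 libraries can reach a high r by selection alone. For Fmod these were Ahnak (0.96) and Sult1a1 (0.95). For Dcn they were P4ha2 (0.93) and Ccdc167 (0.92). Pcolce was closest to Ndst2 (0.98) and Ndrg3 (0.95). Bgn was closest to Atg9a (0.95) and Emx2 (0.94), Prelp to Dnajb4 (0.96) and Nub1 (0.94), and Lum to Recql (0.97) and Vac14 (0.95).

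White blood cells, TBI against sham. Bgn was the only one of the 8 genes measured in WBC, and its TBI libraries all lay under its sham libraries, without passing in limma. It stood at 35.7, 79.7, 109 and 97.2 FPKM in TBI libraries 1 to 4. In sham libraries 1 to 4 it stood at 125, 161, 118 and 121 FPKM. No TBI library reached a sham library, and TBI 1 was far below the other 3 TBI libraries. The mean ratio was 0.613, and the log2 difference was -0.81 ± 0.32 (SE; 95% interval -1.55 to -0.07; limma adjusted p = 0.214 over 13413 rows). In this tissue 14.2% of all rows had groups that did not overlap, 8.63% with TBI lower, and 20.3% were at an unadjusted p under 0.05 (0.0358 for Bgn). The log2 difference was above 0 in 49.6% of rows. No row passed after adjustment, a share of 0%. Without TBI 1 the log2 difference of Bgn was -0.46 ± 0.15 (limma adjusted p = 0.215).

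Platelet and red cell markers were also lower on average in TBI, without passing. The 6 platelet and megakaryocyte markers in the WBC table were all tested and had log2 differences below 0 (median -0.93), and so had all 9 erythroid markers (median -0.99), against a median of -0.00 for all rows. None passed in limma, with 4 and 7 at an unadjusted p under 0.05, against 20.3% of all WBC rows tested. The platelet markers summed to 2281, 5137, 6730 and 5861 FPKM in TBI libraries 1 to 4 and to 8422, 9822, 7175 and 7678 FPKM in sham libraries 1 to 4. TBI 1 was the lowest and sham 2 the highest, as for Bgn and for the erythroid markers. The erythroid markers summed to 4238, 9188, 10252.5 and 7980 FPKM in TBI libraries 1 to 4 and to 10308, 16421, 13928 and 12571 FPKM in sham libraries 1 to 4. Pf4 made up 74.4% of the platelet sum and Alas2 74.3% of the erythroid sum. Without Pf4 the platelet sums ran from 531 to 1678 FPKM in TBI and from 1871 to 2522 in sham. Without Alas2 the erythroid sums ran from 1037 to 2305 FPKM in TBI and from 2947 to 4249 in sham. Pf4, a platelet chemokine, stood at 3759 ± 1424 FPKM in TBI and 6115 ± 855 in sham, Clec1b at 722 ± 303 and 1079 ± 154, and Treml1 at 388 ± 148 and 703 ± 129. Slc4a1, the anion exchanger of red cells, stood at 878 ± 258 and 1697 ± 293 FPKM in TBI and sham, and the carbonic anhydrase Ca2 at 642 ± 222 and 1305 ± 201. Leukocyte markers were above 0 in 5 of 13 (median -0.09), with 0 at an unadjusted p under 0.05. They summed to 2192, 3361, 2497 and 2645 FPKM in TBI libraries 1 to 4, so TBI 1 was the lowest here too. In sham libraries 1 to 4 they summed to 3036, 3124, 2793 and 2749 FPKM. Of the 28 leptomeningeal and fibroblast markers listed in WBC, 2 passed the filter, Gjb2 at 4.11 ± 1.65 FPKM in TBI and 4.96 ± 1.38 in sham, and Slc13a4 at 1.86 ± 1.51 and 2.42 ± 1.41. Fbln1 was under the filter on average but reached 4.65 FPKM in TBI 1. Col1a1 stood at 0.0457 and 0.0262 FPKM and Pdgfra at 0.0175 and 0.0166 FPKM in TBI and sham. The other marker lists had 2 to 6 tested genes each in WBC and none called in limma, with 1 choroid plexus, 1 endothelial and 1 microglia gene at an unadjusted p under 0.05. The part of platelets or red cells in the level of Bgn was not tested.

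**Figure D5:**
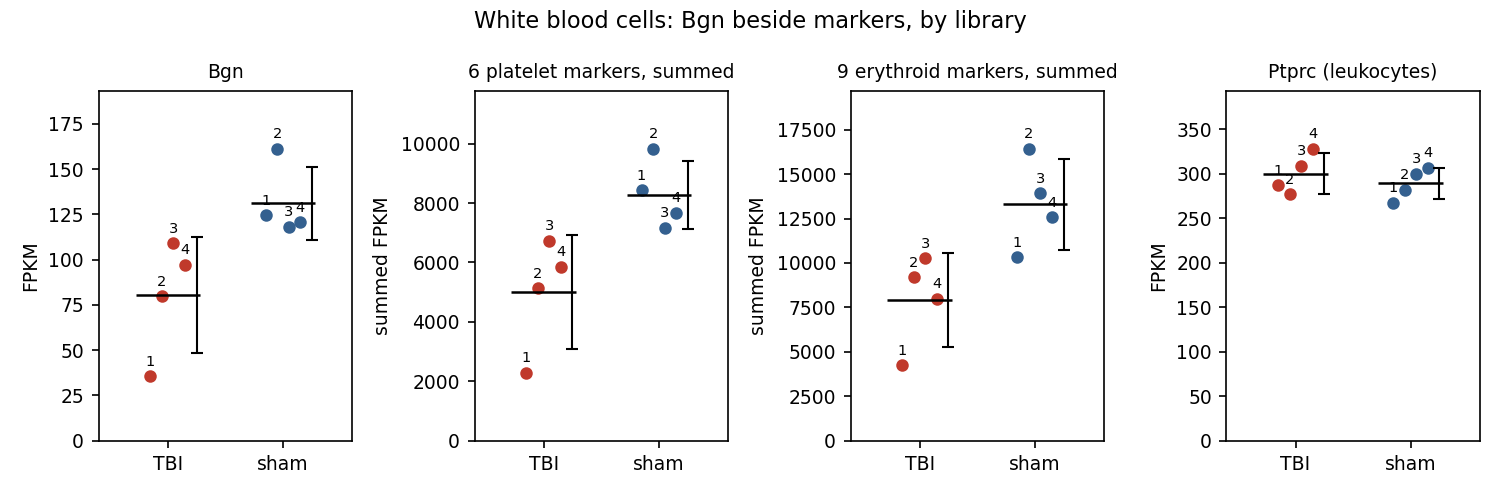
Bgn (FPKM), the summed FPKM of 6 platelet markers and of 9 erythroid markers, and the leukocyte gene Ptprc (FPKM) in the WBC libraries, TBI left of sham, 1 numbered point per library, with the mean (line) and the SD (bar) of 4 libraries. Bgn and both sums are lowest in TBI 1 and highest in sham 2. Pf4 makes up 74.4% of the platelet sum and Alas2 74.3% of the erythroid sum. Ptprc stands at 277 to 328 FPKM in TBI and 268 to 307 in sham. It is 1 of 13 leukocyte markers, whose sum, not drawn, is also lowest in TBI 1 (2192 FPKM).

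The difference in Bgn between the tissues did not pass. The WBC effect minus the CA1 effect was -0.82 ± 0.37 (SE; 95% interval -1.62 to -0.03; limma interaction term, adjusted p = 0.233 over 7639 genes), where 0.419% of genes passed. Without WBC TBI 1 it was -0.48 (limma adjusted p = 0.295).

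The remaining genes were close to the floor of the WBC table. Dcn was above 0 in 4 of 4 TBI libraries (0.0299 to 0.0874 FPKM) and in 1 of 4 sham libraries (0.0526). Prelp was above 0 in all TBI libraries (0.0505 to 0.0988 FPKM) and in sham 2 and sham 4 (0.0844 and 0.0609). Pcolce ran from 0.0464 to 0.253 FPKM in TBI and from 0 to 0.306 in sham. Exact 2-sided permutation tests of these single genes gave p = 0.0857 for Dcn, p = 0.257 for Prelp and p = 0.686 for Pcolce, where 0.0286 is the smallest p that 4 against 4 allows. Lum was listed above 0 in sham 1 (0.110 FPKM) and sham 2 (0.0677) only, and Fmod in TBI 1 (0.0442) and sham 4 (0.0273) only.

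Each list of genes that act with these proteoglycans had members above the filter in WBC except the collagens. No gene of these lists passed in limma, and of all WBC rows tested 20.3% were at an unadjusted p under 0.05. Of 8 receptors tested, 5 were above 0 (median 0.08) and 1 was at an unadjusted p under 0.05. That was Itgb1, at 129 ± 31.3 FPKM in TBI and 204 ± 23.6 in sham (log2 -0.68 ± 0.19 SE, limma adjusted p = 0.142), while Tlr2, a receptor for biglycan, stood at 8.18 ± 1.28 and 8.37 ± 0.912 FPKM and Lrp1 at 7.30 and 7.05. TGF-beta and BMP genes were above 0 in 6 of 10 (median 0.07), with 3 at an unadjusted p under 0.05. Tgfb1 itself stood at 91.4 ± 8.67 FPKM in TBI and 102 ± 13.8 in sham, Tgfbr2 at 67.6 and 68.5, and Smad4 at 50.6 and 44.3 (log2 0.19, limma adjusted p = 0.158). Chain synthesis genes were above 0 in 13 of 19 (median 0.16), with 3 at an unadjusted p under 0.05. The chondroitin sulfotransferase Chst12 stood at 37.9 ± 8.88 FPKM in TBI and 64.2 ± 16.03 in sham (log2 -0.75, limma adjusted p = 0.145), B3gnt2 at 77.7 and 75.3, and B4galt1 at 20.05 and 22.6. Procollagen processing genes were below 0 in 6 of 9 (median -0.17), with 4 at an unadjusted p under 0.05. Ppib stood at 121 and 129 FPKM in TBI and sham, P4hb at 53.3 and 60.0, and Plod1 at 6.37 and 6.22. Of 3 matrix proteases and inhibitors 1 was above 0 (median -0.51) and 1 was at an unadjusted p under 0.05, with Timp3 at 9.67 and 13.7 FPKM, Timp2 at 5.54 and 8.95, and Mmp9 at 1.86 and 1.46.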

How the data were processed

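The deposited tables hold FPKM per locus for 16 libraries, with a status per value. Per the submitters' processing notes, the authors used TopHat, Bowtie, Cufflinks and Cuffdiff with genome build rn5, with no role, order or version given. Such FPKM values depend on how fragments at repeated loci are shared, and no source used here states whether strand was used. Per the labels' protocols, each library began with 1000 ng of total RNA, selected for polyadenylated transcripts and copied from random primers. All columns were mapped to samples by title.

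From these, log2(FPKM + 0.5) was tested with limma 3.58.1 in R 4.3.3 (trended eBayes), over rows with a mean of at least 1 FPKM and an OK status in all 8 libraries of the tissue, with Benjamini-Hochberg adjustment over all such rows and a threshold of 0.05. TBI was compared with sham in each tissue, and the effects between tissues by an interaction term. Genes under the filter with at least 4 libraries above 0 had exact 2-sided permutation tests with numpy 2.4.6. Ranks and adjusted p-values of the correlations came from scipy 1.17.1. The fit was tested on simulated data. The 8 genes and the 18 lists of related genes and markers were chosen with earlier results of these data known. Named list genes are the highest tested ones by mean level, at most 3 a list, since no list gene was called. Slc17a7, Wfs1, Bmp1, Col1a1 and the other genes outside that rule were chosen after their values were seen or as known partners and markers. Gene order and promoters come from GRCr8, another build than that of the files, by symbol. Alternatives were 2 other pseudocounts, other filters, scalings and variance models, a block for replicate number, and leaving out each library. In CA1, sham 1 and TBI 1 were also left out together, an alternative chosen after seeing the data.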

Additional observations from a re-analysis of the deposited data

Results flagged for a closer look

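Bgn in the WBC sham libraries held a library far from the others. Sham 2 stood at 161 FPKM, against 118 to 125 FPKM in the other 3, and the gap to the nearest was 0.829683 of the whole range, just above Dixon's critical value for 4 samples. Of 14 groups examined this was the only 1 past that value, and chance flags about 1 in 20. Sham 2 was also the highest WBC library in summed platelet markers (9822 FPKM) and erythroid markers (16421 FPKM). Without it, the log2 difference of Bgn was -0.71.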

How the results depend on the processing

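No member passed the threshold of 0.05 under any alternative run, and Dcn, Fmod, Prelp, Pcolce and WBC Bgn kept their direction in all of them. Leaving out each library in turn, CA1 Bgn ran from -0.12 to 0.13 and CA1 Lum from -0.29 to 0.15, crossing 0, and Lum was 0.16 without sham 1 and TBI 1 together. The lowest adjusted p of a member in CA1 was 0.281, for Fmod, without those 2 libraries (chosen after seeing the data). That of Bgn was 0.186 in WBC and 0.128 for the interaction, both without WBC TBI 3. Fmod, Lum and Pcolce had no value at a minimum mean of 5 FPKM.

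Over all rows, CA1 had 1 called, against 3 without a variance trend, 2 without sham 1 and TBI 1, and 1 to 2 leaving out a library. WBC had 0 called, against 2 with rows of every status and 0 to 4 leaving out a library. The interaction had 32 called, against 13 with no filter, 20 at a minimum mean of 5 FPKM, 214 with the replicate block, and 6 to 224 leaving out a library. Among list genes it had 0, against 4 with the replicate block and 0 to 6 leaving out a library. The causes were not tested. The median correlation of 0.52 was 0.40 with group means subtracted and 0.45 without the 2 farthest libraries.

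Replicate numbers are shared between groups, and the labels do not say whether they pair the samples or mark a batch. In CA1, sham 1 and TBI 1 stood together on the first principal component. Same-numbered samples deviated together with r of 0.0230 to 0.240 in CA1 and -0.00821 to 0.147 in WBC, and 4 of 8 CA1 and 2 of 8 WBC samples correlated best with their own number. Each sample had only 4 candidates in the other group, so some such matches arise by chance, and pairing was not tested. With the replicate block CA1 had 1 row called and WBC 0, and the adjusted p of WBC Bgn was 0.229. Fragment depth is unknown, so the counting error of low values cannot be given.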
